A study of Homo sapiens with 12 samples.

Results

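H3K9me3 peaks over 2 clusters of zinc finger genes on human chromosome 19, 19p13.2 and 19q13.31, were described in WT (wild-type) and SMARCA3 knockout (KO) 293T cells. The members were all chromosome 19 peaks whose midpoint lay from 9.3 to 12.8 Mb (19p13.2) or from 43.5 to 45.0 Mb (19q13.31), in hg38 coordinates. They numbered 1135 of the 112068 peaks in both peak lists. In 19p13.2 there were 256 WT and 414 KO peaks, and in 19q13.31 there were 199 WT and 266 KO peaks. Position alone chose them. The lower bound of 19p13.2 runs through the gene ZNF699, where the nearest KO peak inside it had a fold of 3.20 and the nearest outside 5.83, and the nearest WT peaks had 3.53 and 3.56.

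293T is an established line of human kidney origin that expresses the large T antigen of SV40. The groups were WT 293T cells and 293T cells of the genotype SMARCA3_KO. SMARCA3, now named HLTF, encodes a DNA translocase with a ubiquitin ligase domain, and the series title links it to H3K9me3. Each genotype had 3 libraries precipitated with an antibody to trimethylated lysine 9 of histone H3 and 3 input libraries. No agent, time or further allele is named for either group, and whether the KO cells were 1 clone is not given in the sources used here. Peak lists do not measure expression, so neither the knockout nor the cell line was checked against markers.

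The data were 2 peak lists, 1 per genotype, with a position, a fold enrichment and a q-value for each peak as the authors gave them. The lists hold no value per library. The read depth is therefore unknown, no spread between cultures could be measured, and no difference below has a replicate check or a p-value. Intervals are 95% intervals that treat peaks or genes as independent, and they cover counting error only. At a similar fold, q-values were smaller in the KO list: in 19p13.2 the median fold was 3.77 in WT and 3.68 in KO, while the median q was 8.9e-07 in WT and 3.5e-09 in KO.

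C2H2 zinc finger proteins form the largest family of human transcription factors, and many carry a KRAB domain that recruits the corepressor TRIM28 and the H3K9 methyltransferase SETDB1. Their genes arose by repeated duplication and lie in tandem arrays, above all on chromosome 19. The genes themselves are known to carry H3K9me3, which is usually found over the 3' exon that encodes the array of fingers. The promoters of these genes often lie in CpG islands, which stay free of the mark in active genes.

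Promoter sequences of 4 zinc finger genes are shown because the start sites with a promoter window at hand lacked the mark, with 1 exception. Genes without such a window could not be checked this way. Each runs from 250 bases before to 50 after the transcript start, 5' to 3' on the gene's strand, and comes from RefSeq (GRCh38.p14). Capitals mark the CG dinucleotides, which read the same on both strands. ZNF121 and ZNF564 (19p13.2) and ZNF180 (19q13.31) are genes with much of the body under peaks and none over the promoter. ZNF404 (19q13.31) was, among the genes with a promoter window, the 1 gene with a peak over it in both lists.
ZNF121, chr19:9584455-9584754, minus strand: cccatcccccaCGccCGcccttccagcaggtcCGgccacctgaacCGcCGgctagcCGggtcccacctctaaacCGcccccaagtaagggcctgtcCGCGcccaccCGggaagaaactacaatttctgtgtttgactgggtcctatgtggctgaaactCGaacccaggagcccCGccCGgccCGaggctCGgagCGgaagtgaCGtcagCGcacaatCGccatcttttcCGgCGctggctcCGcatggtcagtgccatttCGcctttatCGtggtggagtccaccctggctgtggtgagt
ZNF564, chr19:12551433-12551732, minus strand: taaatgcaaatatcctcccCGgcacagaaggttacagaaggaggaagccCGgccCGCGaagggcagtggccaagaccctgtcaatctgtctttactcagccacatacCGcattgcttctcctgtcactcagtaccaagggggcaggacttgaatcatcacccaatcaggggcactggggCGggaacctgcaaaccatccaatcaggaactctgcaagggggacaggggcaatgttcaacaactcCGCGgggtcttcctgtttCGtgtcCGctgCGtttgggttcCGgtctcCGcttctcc
ZNF180, chr19:44500473-44500772, minus strand: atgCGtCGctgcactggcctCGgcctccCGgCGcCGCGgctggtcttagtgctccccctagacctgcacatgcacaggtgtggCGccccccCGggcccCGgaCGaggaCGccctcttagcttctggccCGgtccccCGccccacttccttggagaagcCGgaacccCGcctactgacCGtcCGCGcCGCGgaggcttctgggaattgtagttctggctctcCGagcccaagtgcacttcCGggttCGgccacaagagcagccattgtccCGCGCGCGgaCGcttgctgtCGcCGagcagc
ZNF404, chr19:43883915-43884214, minus strand: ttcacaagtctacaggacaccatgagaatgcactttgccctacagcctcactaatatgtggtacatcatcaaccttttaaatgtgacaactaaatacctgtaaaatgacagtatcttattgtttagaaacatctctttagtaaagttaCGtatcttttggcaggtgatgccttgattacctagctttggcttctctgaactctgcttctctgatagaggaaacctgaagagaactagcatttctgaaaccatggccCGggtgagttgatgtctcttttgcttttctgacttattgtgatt
The ZNF404 sequence holds 2 CG dinucleotides, against 24 in that of ZNF121, 13 in that of ZNF564 and 31 in that of ZNF180.

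In both clusters the mark followed the arrays of zinc finger genes and was nearly missing between and beyond them. The zinc finger genes of 19p13.2 formed 2 groups, split where neighbours lay more than 1 Mb apart. The first, from 9291140 to 9786160, holds 10 genes from ZNF699 to ZNF846. The second, from 11483429 to 12633834, holds 25 genes from ZNF653 to ZNF791. Between them lie 1697 kb, where WT had 1 peak and KO had 3. In 19q13.31 the 23 zinc finger genes form 1 group from 43530835 to 44500522, ZNF575 to ZNF180, and the remainder of the cluster above it held 2 WT and 8 KO peaks. The longest stretch without a peak in 19p13.2 was 1663 kb in WT, with 57 protein-coding genes inside, and 1530 kb in KO, with 55. In 19q13.31 it was 492.7 kb in WT and 283.9 kb in KO.

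Of the 50 kb windows of 19p13.2, 34 of 70 held a peak, and 32 of these had more covered bases in KO and 2 had fewer. In 19q13.31 18 of 30 windows held a peak, and all 18 had more covered bases in KO. The densest KO window of 19p13.2, at ZNF564, was covered to 27.1% in WT and 59.9% in KO. That of 19q13.31, at ZNF180, was covered to 41.5% and 65.6%. The 2 windows with fewer KO bases adjoin each other at the upper edge of the second group. The window with ZNF490 had 2174 covered bases in WT and 1845 in KO, and that with ZNF791 had 3084 and 2978.

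**Figure D1:**
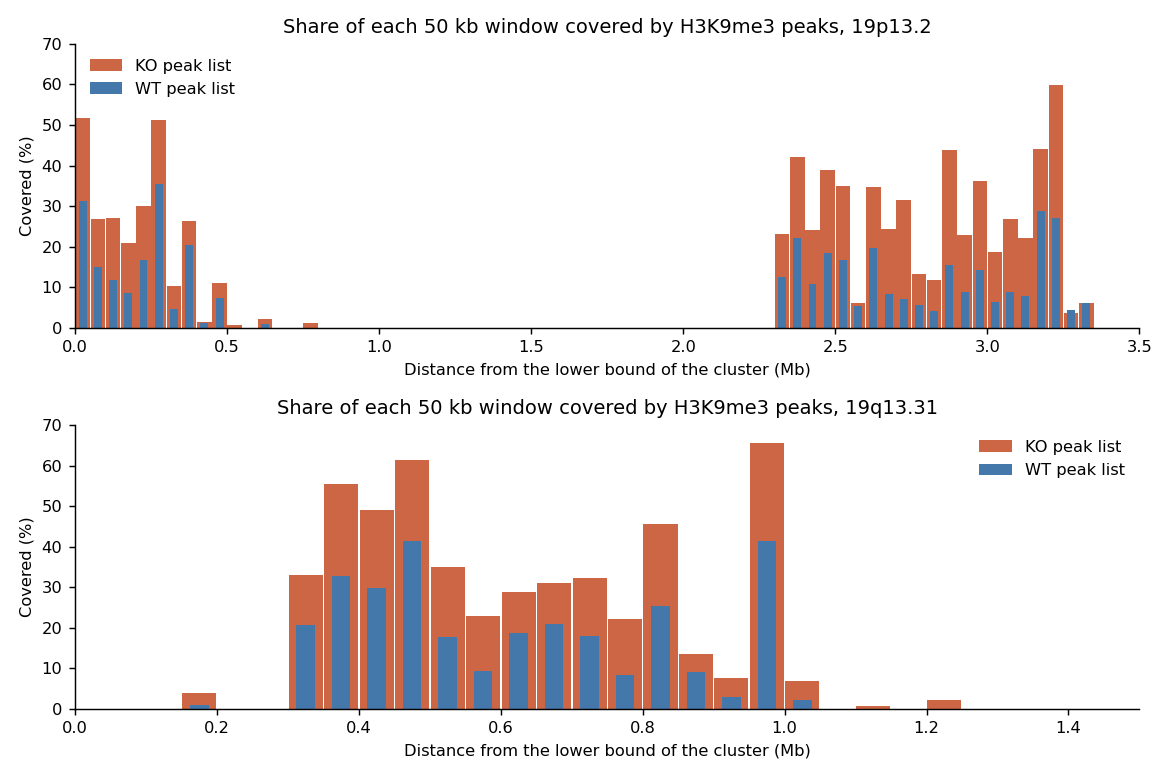
Share of each 50 kb window covered by peaks (%, vertical) against the distance from the lower bound of the cluster (Mb, horizontal), with wide bars for the KO list and narrow bars for the WT list drawn over them. In 19p13.2 the covered windows fall into 2 blocks with 1697 kb of genes other than zinc finger genes between them, and KO bars are higher in 32 of 34 windows with a peak.

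Nearly every zinc finger gene of 19p13.2 carried the mark in both genotypes. Of 35 such genes, 34 had a peak in the body in WT and 34 in KO (97.1%, Wilson interval 85.5 to 99.5%). Gene counts and bases use every peak over the whole body, which for ZNF699 takes in peaks below the bound: 0 of its 6 WT peaks and 6 of its 11 KO peaks lay inside. With peaks inside the bound alone, the counts were 33 genes in WT and 34 in KO. In 19q13.31 it was 17 of 23 in WT (73.9%, 53.5 to 87.4%) and 19 in KO (82.6%, 62.9 to 93.0%). The difference between clusters was 23.2 percentage points in WT (Newcombe interval 5.35 to 43.7) and 14.5 in KO (-1.11 to 34.4). The genes without a peak in either list were ZNF653 in 19p13.2 and ZNF575, ZNF576, ZNF428 and ZNF285 in 19q13.31. ZNF575, ZNF576 and ZNF428 are the first 3 genes of their group and adjoin genes of other families, whereas ZNF285 lies inside the marked array.

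Genes of other families in the same intervals were almost free of peaks. Of 73 other protein-coding genes in 19p13.2, 0 had a WT peak, where a count of 0 allows a share of up to 4.11%, and 1 had a KO peak. That gene was FBXL12, an F-box subunit of ubiquitin ligases just above the first group, with 366 bases in KO. DNMT1, the maintenance DNA methyltransferase, SMARCA4, an ATPase of the SWI/SNF complex, and CARM1, an arginine methyltransferase, lie in this interval and had no peak in either list. In 19q13.31, 1 of 26 other genes had a WT peak and 2 had a KO peak. LYPD5, of the Ly6 family, had 0 bases in WT and 1962 in KO, in 3 peaks beside the lower end of the marked array. CEACAM20, a cell adhesion gene beside ZNF180, had 421 and 271. Of the 8 immunoglobulin superfamily genes listed for this interval, CEACAM20 was the only one with a peak in the gene body.

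KO peaks covered more of both clusters than WT peaks did. In 19p13.2 the covered bases numbered 205321 for WT and 414817 for KO, a ratio of 2.02, with a mean peak width of 802.0 and 1002 bp. In 19q13.31 they numbered 149767 and 258477, a ratio of 1.73, with mean widths of 752.6 and 971.7 bp. The ratio of peak number was 1.62 (1.38 to 1.89) in 19p13.2 and 1.34 (1.11 to 1.61) in 19q13.31. Set against each other, the 2 ratios of peak number differed by a factor of 1.21 with an interval of 0.951 to 1.54, which includes 1. When the KO list was cut to the length of the WT list by fold, the ratio of peak number in 19q13.31 was 1.04 (0.857 to 1.26), and that of covered bases was 1.49.

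Within 19p13.2, the first group had 76029 WT and 128403 KO bases, a ratio of 1.69, and the second had 128820 and 284418, a ratio of 2.21. In peak number their ratios were 1.48 (1.12 to 1.95) and 1.68 (1.39 to 2.03), the first over the second being 0.880 (0.629 to 1.23). Over the rest of chromosome 19 the ratio of bases was 2.58 and that of peak number 2.23 (2.11 to 2.36). Both clusters had a lower ratio of peak number than that: the ratio of 19p13.2 over that of the rest of the chromosome was 0.725 (0.615 to 0.856), and that of 19q13.31 was 0.600 (0.495 to 0.726). Outside both clusters the genome stood at 1.39 (1.37 to 1.41) in peak number and 1.58 in bases, and the ratio of peak number in 19q13.31 over that of the genome was 0.962 (0.801 to 1.16), that in 19p13.2 1.16 (0.996 to 1.36).

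Gene by gene, the KO list held more peak bases over 32 of the 34 marked zinc finger genes of 19p13.2 and over 18 of the 19 of 19q13.31. Over all protein-coding genes with a peak in either list that share was 78.0%. A KO level of at least 2 times the WT level was found at 14 genes of 19p13.2 (41.2%, 26.4 to 57.8%) and at 3 of 19q13.31 (15.8%, 5.52 to 37.6%), beside 34.4% of all protein-coding genes with a peak. No zinc finger gene of either cluster had 2 times as many WT as KO bases, beside 7.20% of all such genes. The shares of the clusters differed by 25.4 percentage points (-0.948 to 44.9). Zinc finger genes on the rest of chromosome 19 stood at 56.7%, which is 40.9 points above 19q13.31 (interval of 19q13.31 minus the rest, -53.5 to -17.8). Keeping only peaks whose q did not exceed the pooled median changed the counts from 14 to 25 and from 3 to 11, and a threshold at the pooled median fold took the count of 19q13.31 to 6.

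In 19p13.2 the genes with the largest differences were ZNF69, ZNF44, ZNF136, ZNF564, ZNF433, ZNF560, ZNF442 and ZNF700, of which all but ZNF560 belong to the second group. ZNF69 (ENSG00000198429), from 11887782 to 11980222, had 12747 WT and 25356 KO bases in 14 and 22 peaks, but its RefSeq body contains the whole of ZNF700, which alone had 9195 and 15411. ZNF44 had 9019 and 21208 bases in 11 and 20 peaks. ZNF136 had 6314 and 16783, so that its covered share of the body went from 23.6% to 62.7%. ZNF564 had 9172 and 18192 in 9 peaks each. These 5 were marked over several kilobases in WT already.

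ZNF433 was the gene of 19p13.2 with the largest ratio. Its body, from 12014715 to 12035679 on the minus strand, held 2 WT peaks with 1667 bases and 9 KO peaks with 8950, a ratio of 5.37. The WT peaks had folds of 5.03 and 4.95, and the KO peaks that met them 5.21 and 5.36. Of the 7 further KO peaks, the strongest had a fold of 5.60, above both WT peaks. ZNF560 followed in size of difference with 4605 and 11578 bases, and ZNF442 with 3555 and 10128.

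Of the 4 genes with most WT bases, ZNF121, ZNF559 and ZNF709 had ratios of 1.23, 1.26 and 1.24, and ZNF69 had 1.99. ZNF121 had 17781 WT and 21908 KO bases, 73.6% and 90.6% of its body. It held the widest and strongest peak of 19p13.2 in both lists, 13532 bp at a fold of 9.45 in WT (9563109 to 9576640) and 19391 bp at 10.5 in KO (9560374 to 9579764). ZNF559 had 13173 and 16581 bases and ZNF709 had 12555 and 15569. The 3 genes with the lowest difference were ZNF490 with 2174 and 1837, ZNF791 with 3084 and 2978, and ZNF439 with 2688 and 3085.

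In 19q13.31 the largest difference was at ZNF112. This gene had 11514 WT and 19908 KO bases in 17 peaks each. ZNF221 had 17909 and 24616, or 58.9% and 81.0% of its body. ZNF180 had 18201 and 22391, and held the widest and strongest peak of the cluster, 10743 bp at a fold of 8.74 in WT and 12086 bp at 9.61 in KO. ZNF224, known as a KRAB repressor of the aldolase A gene, had 4154 and 6916. ZNF227 (6210 and 9681), ZNF283 (10584 and 13879) and ZNF234 (2816 and 5481) complete the largest differences with ZNF284. The lowest were ZNF235, with 745 bases in WT and 485 in KO, ZNF225 with 5291 and 6335 and ZNF223 with 2571 and 3983.

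The other 2 of the 3 genes with a KO level of at least 2 times the WT level, beside ZNF229, had no WT peak in the gene body. ZNF284 had 5 KO peaks with 2636 bases, at folds from 2.73 to 4.05, and ZNF233 had 3 with 1852 bases, at 3.02 to 3.74. ZNF229, named for its ratio after its values were seen, had 271 bases in WT and 2164 in KO, from 1 and 5 peaks at folds of at most 3.91. All 3 stand at low absolute levels beside ZNF180 or ZNF221.

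**Figure D2:**
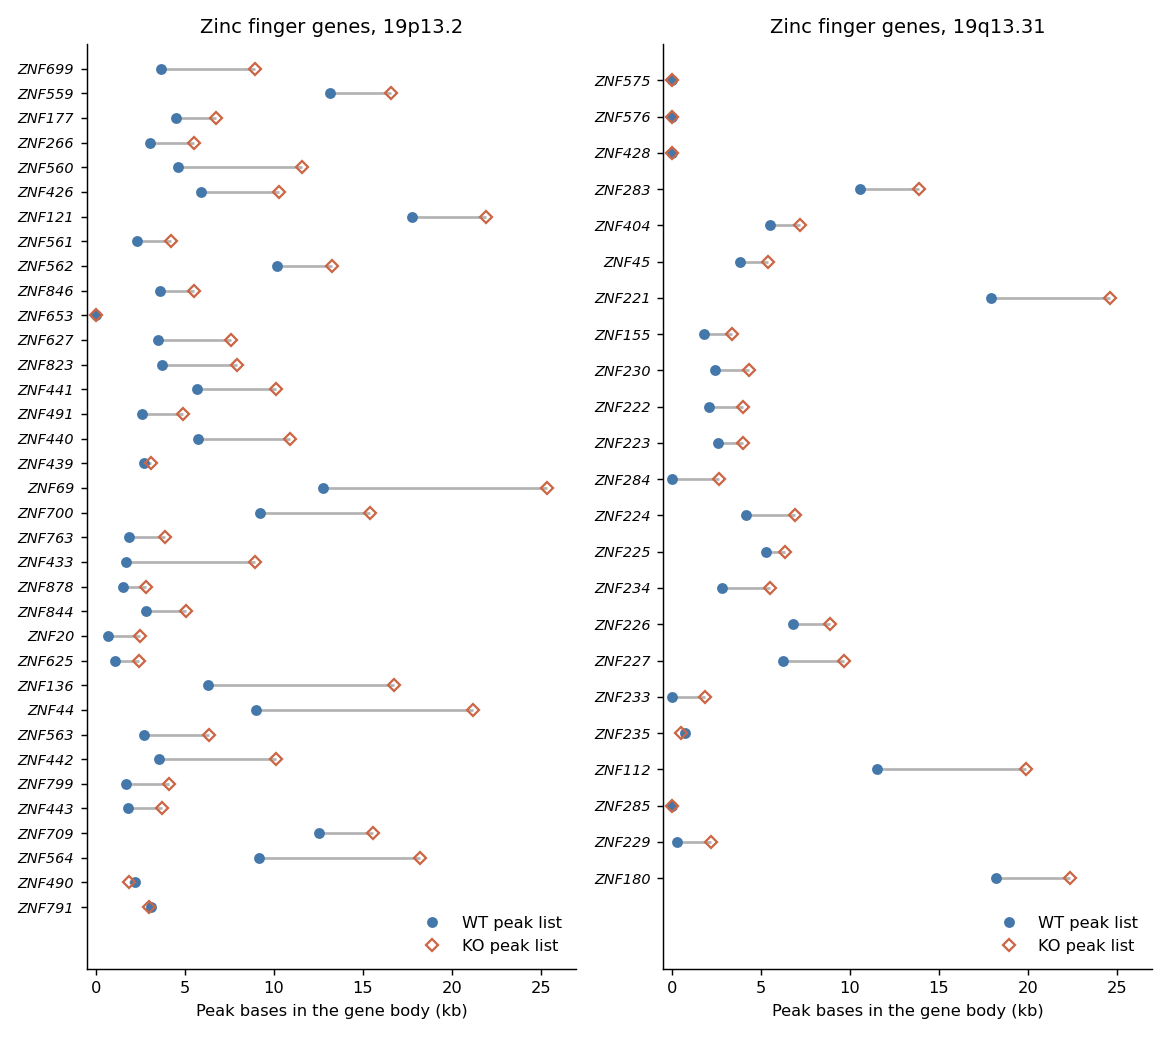
Peak bases within each zinc finger gene body (kb, horizontal) in the WT list (circles) and the KO list (diamonds), with genes in chromosomal order from top to bottom. KO lies to the right of WT at 32 of 34 marked genes of 19p13.2 and 18 of 19 of 19q13.31, and the longest lines belong to ZNF69, ZNF44 and ZNF136.

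Along the gene, WT peaks were concentrated towards the 3' end, and the ratio of KO to WT was larger over the 5' parts, where WT coverage was low. Gene bodies were cut into 10 equal parts from 5' to 3'. In 19p13.2, WT peaks covered 8.78% of the first 3 parts and 34.6% of the last 3, and KO peaks 21.5% and 50.2%, which are ratios of 2.45 and 1.45. In 19q13.31 the first 3 parts had 15.3% and 29.0% and the last 3 had 39.2% and 52.9%, ratios of 1.90 and 1.35. In percentage points, the rise over the last 3 parts was larger than over the first 3 in 19p13.2 and about equal in 19q13.31. The last part was the most covered one of 19p13.2 in both lists (40.9% and 54.4%). Zinc finger genes on the rest of chromosome 19 had the same order, with 9.84% and 27.2% in the first 3 parts and 21.9% and 41.2% in the last 3. Other protein-coding genes with a peak had the opposite order in both lists, with 1.60% and 2.25% in the first 3 and 1.01% and 1.49% in the last 3.

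Gene by gene, the share of bases in the last 3 parts was lower in KO in the medians but not at every gene. The median share of a gene's bases in the last 3 parts was 67.8% in WT and 50.0% in KO in 19p13.2. In 19q13.31 it was 52.9% in WT and 43.4% in KO. Of the 34 marked genes of 19p13.2, 24 had more than 50% of their WT bases in the last 3 parts, and 17 had so in KO. In 19q13.31 it was 9 of 17 in WT and 7 of 19 in KO. At ZNF136 the share of bases in the last 3 parts was 77.7% in WT and 45.2% in KO, at ZNF564 66.0% and 40.2%, and at ZNF442 92.5% and 67.3%. Other genes went the opposite way. The share was 53.5% in WT and 80.9% in KO at ZNF20, and 48.8% and 73.0% at ZNF878. In 19q13.31 it was 0.0% and 32.2% at ZNF155. At ZNF44 and ZNF562 most of the mark lay elsewhere in the body, with 5.34% and 4.02% of WT bases there. These shares rest on gene models that give only the start and end of each gene, so exons were not tested.

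**Figure D3:**
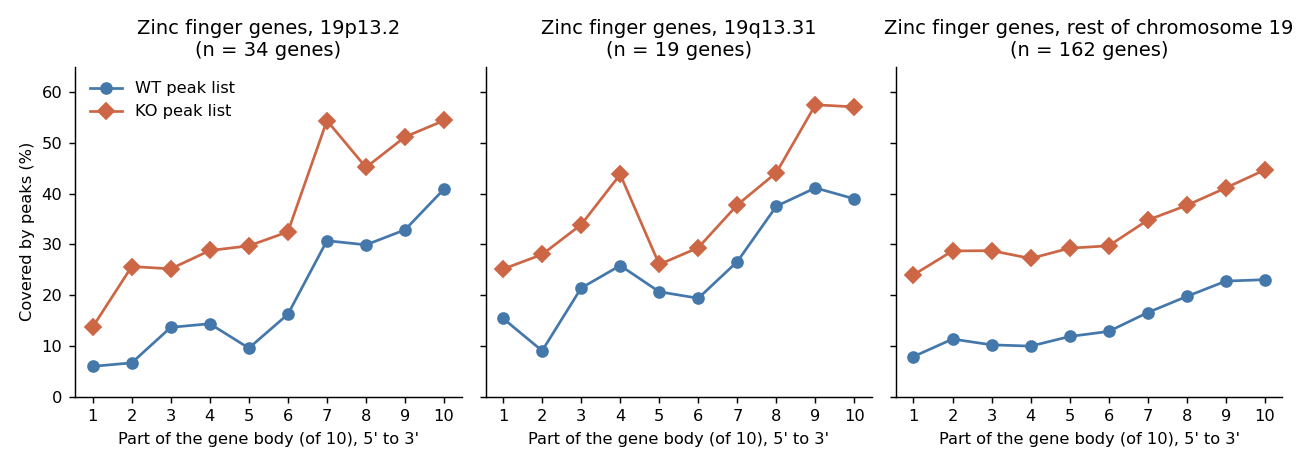
Share of each of 10 equal parts of the gene body covered by peaks (%, vertical) from 5' to 3' (horizontal), summed over zinc finger genes with a peak in either list, for the WT list (circles) and the KO list (diamonds). Coverage in WT rises towards the 3' end in both clusters, to 40.9% in the last part of 19p13.2, and the KO curve lies above the WT curve in every part drawn.

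At the start sites with a promoter entry both lists were nearly empty. RefSeq promoter entries were at hand for 33 of 35 zinc finger genes of 19p13.2 and 19 of 23 of 19q13.31, with 35 and 23 promoter windows. ZNF559 and ZNF763 in 19p13.2 had no entry and were not tested. The same holds for ZNF221, ZNF155, ZNF223 and ZNF233 in 19q13.31. Of the 35 windows of 19p13.2, 0 met a peak in either list, and 1 of 23 did in 19q13.31, in both lists. The exception was ZNF404, whose window lay inside a WT peak of 2450 bp at a fold of 5.19 (43883260 to 43885709), and was met over 242 of its 300 bases by a KO peak of 829 bp at 4.36. Of the 58 windows of both clusters it had the fewest CG dinucleotides, 2, and the next lowest had 8. The median was 18 in 19p13.2, 18 in 19q13.31 and 21 in all 22114 promoter windows of protein-coding genes, of which 98.0% hold at least 1 CG and 10.3% hold at most 2. Of all 22114 windows, 0.0904% met a WT peak and 0.330% a KO peak. The authors' own class within 250 bp of a transcript start held 11 WT and 19 KO peaks in 19p13.2, because it counts starts of any transcript. Of these, 4 and 7 were assigned to zinc finger genes. In 19q13.31 this class held 5 WT and 5 KO peaks, of which 4 and 4 were assigned to zinc finger genes. Those in WT were at ZNF221 and ZNF155, which had no promoter window, and at ZNF45 and ZNF224, whose windows met no peak. In 19p13.2 those in WT included ZNF177, ZNF700 and ZNF20, whose windows met no peak either. The promoter windows therefore do not cover every annotated transcript start of these genes.

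Upstream of the start sites the clusters differed, a comparison made after the profiles had been seen. In 19q13.31, 11 of 19 genes had a WT peak within 3 kb upstream (57.9%, 36.3 to 76.9%), against 3 of 33 in 19p13.2 (9.09%, 3.14 to 23.6%), a difference of 48.8 percentage points (22.8 to 68.7). In KO it was 15 of 19 (78.9%) against 11 of 33 (33.3%), a difference of 45.6 points (17.6 to 64.1). No other zinc finger gene body lay within 3 kb upstream of any of the 19 starts of 19q13.31, so these peaks did not lie over the 3' end of another zinc finger gene. Some starts used lay inside the gene's own RefSeq body. The upstream WT peaks of ZNF227 and ZNF112 in 19q13.31 and of ZNF442 in 19p13.2 therefore lay within the body of the same gene. Within 3 kb downstream the clusters were closer, with 7 of 19 and 9 of 33 genes in WT (difference 9.57 points, -14.9 to 34.8) and 13 of 19 and 16 of 33 in KO (19.9 points, -7.77 to 42.7). Zinc finger genes on the rest of chromosome 19 had an upstream peak at 26.6% in WT and 60.5% in KO. The nearest WT peak lay a median of 6151 bp from the start in 19p13.2 and 1050 bp in 19q13.31, and the nearest KO peak 2290 and 805 bp.

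**Figure D4:**
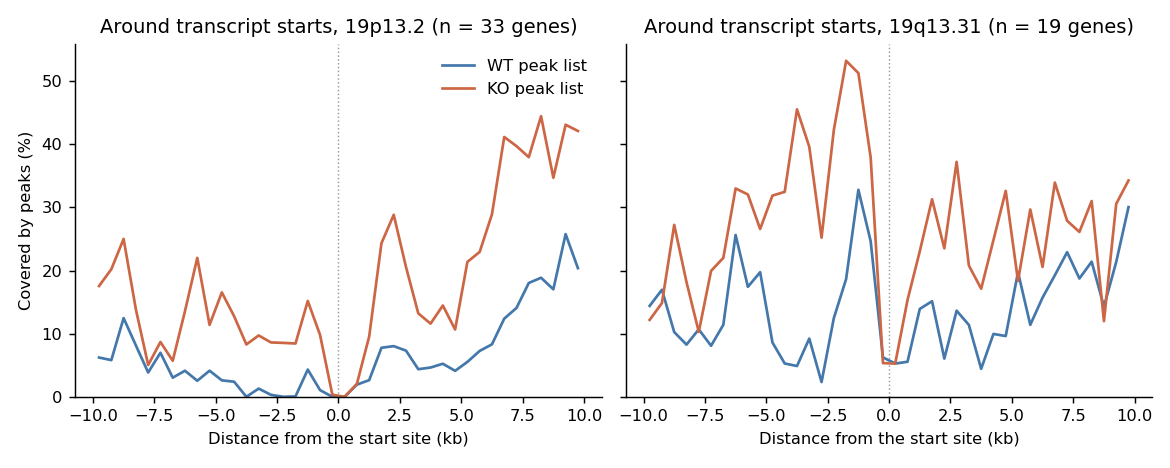
Share of positions covered by peaks (%, vertical) in bins from 10 kb upstream to 10 kb downstream of the transcript start (kb, horizontal), read along the strand of the gene, over 33 zinc finger genes of 19p13.2 and 19 of 19q13.31. In 19p13.2 neither list has a peak within 250 bp of the 1 start used for each gene. In the WT list 57.9% of genes of 19q13.31 and 9.09% of 19p13.2 had a peak within 3 kb upstream of that start.

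The WT peaks were largely met by KO peaks. Over 50% of KO peaks in each cluster stood alone, in 19q13.31 near the share over all KO peaks. In 19p13.2, 239 of 256 WT peaks met a KO peak by at least 1 bp (93.4%, 89.6 to 95.8%), and in 19q13.31 177 of 199 did (88.9%, 83.8 to 92.6%). That leaves 17 and 22 WT peaks that met none, beside 20.1% of all WT peaks. Of these, 10 of 17 and 17 of 22 lay within 1 kb of a KO peak. Among KO peaks, 237 of 414 and 138 of 266 met no WT peak, beside 49.4% of all KO peaks, so 42.8% (38.1 to 47.6%) and 48.1% (42.2 to 54.1%) met one. On the rest of chromosome 19 it was 31.3% (29.9 to 32.7%), 11.5 points below 19p13.2 (6.59 to 16.5) and 16.9 below 19q13.31 (10.7 to 23.0). With overlap required over at least 50% of both peaks, the WT shares were 32.0% and 33.2%.

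KO-only peaks were narrower and weaker than the other KO peaks, and most lay within 5 kb of a WT peak. Their median width was 414 bp in 19p13.2 and 386.5 bp in 19q13.31, against 1033 and 1047 bp for KO peaks that met a WT peak, and their median fold was 3.51 in both clusters, against 4.19 in both for the others. Of the 237 in 19p13.2, 202 lay within 5 kb of a WT peak (85.2%, 80.1 to 89.2%), and of the 138 in 19q13.31, 110 did (79.7%, 72.2 to 85.6%), against 52.4% on the rest of chromosome 19. The share within 5 kb that the density of WT peaks alone would give was not tested. Width and fold were much the same elsewhere: KO-only peaks had medians of 427 bp and 3.51 on the rest of chromosome 19. In the genome outside both clusters the medians were 401 bp and 3.43. In 19p13.2, 129 of the 237 lay over a zinc finger gene body, and in 19q13.31 63 of the 138. Among all KO peaks it was 250 of 414 (60.4%) and 136 of 266 (51.1%). The strongest KO-only peak in each cluster had a fold of 5.60.

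The larger KO total held both wider peaks at the same places and separate peaks. Of the KO bases of 19p13.2, 45.8% lay inside a WT peak, 24.9% in the parts of KO peaks that reached beyond the WT peak they met, and 29.3% in KO-only peaks. In 19q13.31 the shares were 51.3%, 23.5% and 25.2%. On the rest of chromosome 19 KO-only peaks held 43.6%. The second group of 19p13.2 had the largest share of extension, 28.6%, and the first group had 16.6%. In the reverse direction, 92.6% of WT bases in 19p13.2 and 88.5% in 19q13.31 lay inside KO peaks. In 19p13.2, 42 KO peaks spanned at least 2 WT peaks, joining 116 of them, where WT had 256 peaks. In 19q13.31 38 KO peaks joined 93, where WT had 199. The rest of chromosome 19 was similar, with 335 KO peaks that joined 848, where WT had 1843. In the genome outside both clusters 5931 KO peaks joined 13330, where WT had 46019. Where 1 WT peak met 1 KO peak, the KO peak was wider in 103 of 116 pairs of 19p13.2 and 65 of 80 of 19q13.31, with median ratios of width of 1.72 and 1.61, beside 1.61 on the rest of chromosome 19 and 1.22 in the genome outside the clusters. The fold was higher in KO in 80 of these 116 pairs and 51 of the 80, or 69.0% and 63.7%, beside 65.1% on the rest of chromosome 19 and 51.3% outside the clusters.

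**Figure D5:**
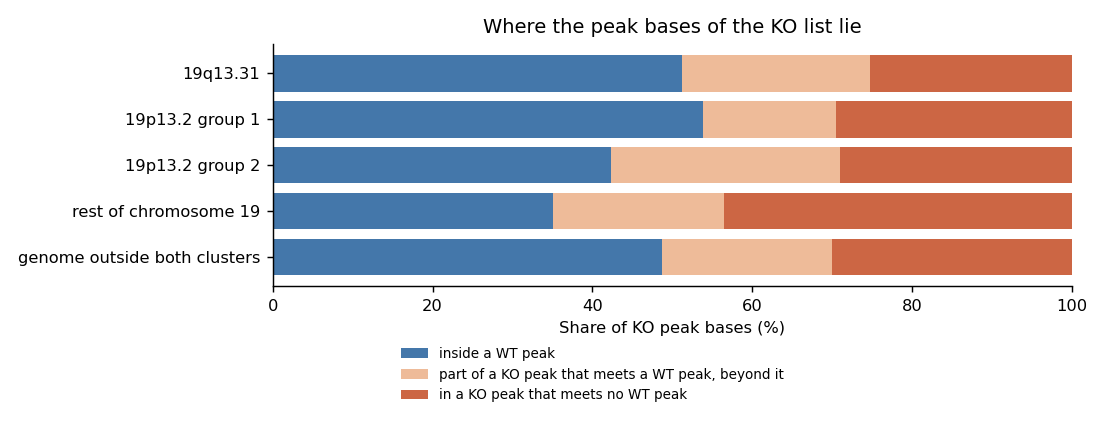
Share of KO peak bases (%, horizontal) that lay inside a WT peak, in the part of an overlapping KO peak beyond the WT peak, or in a KO peak that met no WT peak, by region. The KO-only part is 25.2% in 19q13.31 and 43.6% on the rest of chromosome 19.

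Strong peaks were more numerous in KO in both clusters, though at some thresholds the interval of the ratio included 1. From a fold of 5, 19p13.2 had 25 WT and 52 KO peaks, a ratio of 2.08 (1.30 to 3.34), and 19q13.31 had 13 and 32, a ratio of 2.46 (1.31 to 4.64), where the rest of chromosome 19 stood at 2.32 (1.88 to 2.85) and the genome outside both clusters at 1.29 (1.24 to 1.34). From a fold of 4 the ratios were 1.55 (1.20 to 2.00) and 1.22 (0.905 to 1.65). The rest of chromosome 19 stood at 1.85 (1.68 to 2.04) and the genome outside both clusters at 1.09 (1.07 to 1.12). From a fold of 6 there were 9 and 17 peaks in 19p13.2, a ratio of 1.89 (0.859 to 4.15), and 5 and 11 in 19q13.31, 2.20 (0.799 to 6.06). The rest of chromosome 19 stood at 3.86 (2.40 to 6.21) and the genome outside both clusters at 1.55 (1.44 to 1.67). The first group of 19p13.2 had 9 and 11 peaks from a fold of 5, a ratio of 1.22 (0.520 to 2.87), and the second had 16 and 41, 2.56 (1.45 to 4.53). Among peaks of 5 kb and wider there was 1 in WT and 9 in KO in 19p13.2, and 1 and 6 in 19q13.31. Such peaks were also more numerous in KO elsewhere. There were 11 of 1843 in WT and 43 of 4109 in KO on the rest of chromosome 19. In the genome outside both clusters there were 112 of 46019 and 289 of 63918. The next widest KO peak of 19p13.2 after that of ZNF121 lay over ZNF700 (11941801 to 11952914), with 11114 bp at a fold of 7.14. Beneath it WT had peaks of 3948 bp at 3.02 (11941879 to 11945826) and 3686 bp at 5.50 (11947197 to 11950882). Narrower WT peaks of 353 and 403 bp lay there too. In 19q13.31 the second widest KO peak was at ZNF404, with 6918 bp at 5.90.

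By the authors' annotation, the promoter classes, which reach 3 kb from a start, made up 30.9% of WT and 36.5% of KO peaks in 19p13.2, and 40.7% and 40.2% in 19q13.31. The cluster difference in WT was -9.84 percentage points for 19p13.2 minus 19q13.31 (-18.6 to -0.997), and in KO -3.75 (-11.2 to 3.67). On the rest of chromosome 19 these classes held 32.2% of WT and 32.1% of KO peaks. In WT, 19p13.2 minus the rest of the chromosome was -1.32 points (-7.08 to 4.95), and 19q13.31 minus the rest 8.53 (1.59 to 15.8). In the genome outside both clusters they held 7.97% and 9.41%. Intergenic peaks made up 7.42% and 12.1% in 19p13.2 and 13.6% and 16.9% in 19q13.31. On the rest of chromosome 19 they made up 19.1% and 23.5%, and in the genome outside both clusters 48.3% and 48.6%. In the first group of 19p13.2 the promoter share was 32.1% in WT and 46.8% in KO (38.2 to 55.5%), and in the second 30.4% and 32.1%.

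Noncoding genes and pseudogenes within the arrays carried peaks as well, and the ones named here were chosen after their values were seen. The third widest KO peak of 19p13.2, 7666 bp at a fold of 4.52 (11683474 to 11691139), was assigned by the authors to the lincRNA gene AC008543.1. Beneath it lay 4 WT peaks of 396, 3634, 565 and 332 bp, of which the first and second were assigned to the pseudogene ZNF833P and the others to no gene. Sums by assigned gene are therefore not compared there. In 19q13.31 the pseudogene ZNF285B had 1563 and 5149. A peak has no strand, so a peak over overlapping genes cannot be assigned to either of them by these data. None of the 10 miRNA hairpins of 19p13.2 and 2 of 19q13.31 lay in a peak. Zinc finger genes of an array share much of their sequence, and how reads that fit several copies were placed is not given in the sources used here.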

How the data were processed

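H3K9me3 ChIP-seq of 293T cells was described from 2 annotated peak lists, deposited as 1 per genotype, for a series with 3 ChIP and 3 input libraries each for WT and KO. The submitters' processing notes name HISAT2 and hg38; the caller, how input was used and how replicates entered each list were, in the sources used here, not given. The fold enrichment was read as a ratio of signal over background, and the q-value as an adjusted p within each list, both as the authors deposited them. The deposited starts and ends were read as bp counted from 1, which the file headers do not state.

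Peaks were selected by midpoint, and called shared from 1 bp of overlap on chromosomes 1 to 22, X and Y. Gene bodies are those of RefSeq (GRCh38.p14), in which 57 of the 66 protein-coding names in these clusters were found, all 57 with overlapping coordinates. Zinc finger genes are protein-coding genes whose symbol starts with ZNF, ZFP, ZSCAN, ZKSCAN, ZBTB or ZIM, without readthrough genes. A gene lies in a cluster by its midpoint. Strand came from the RefSeq promoter table, or from the authors' list for 2 genes of 19p13.2 and 4 of 19q13.31; where a gene had several start sites, the first listed was used for the profiles. Shares have Wilson intervals, ratios of counts the same interval turned into a ratio, differences of shares Newcombe intervals, and a ratio of ratios an interval on the log scale, all at 95%. Named genes are, per cluster, the 8 with the largest difference of peak bases, the 4 with most WT bases, the 3 with the lowest difference, those with a peak in 1 list, up to 4 other genes with most bases, and the 3 widest and 3 strongest peaks per list. The clusters, lists and rules were chosen with earlier results of these data known. Python 3.11.15, pandas 2.3.3 and scipy 1.17.1 were used, and the overlap code was tested on simulated intervals. Alternatives were thresholds of fold and q, list length, merging, overlap, bounds and gene assignment.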

Additional observations from a re-analysis of the deposited data

How the results depend on the processing

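Of 54 values under the alternatives, 31 stayed within the counting interval of the reported value (for covered bases, an interval of the same relative width as that of peak number; for counts of genes, within 1.5 times), 23 moved and 0 changed direction. With a threshold at the pooled median fold (3.69), 84.7% of WT peaks in 19p13.2 and 79.0% in 19q13.31 met a KO peak, and 6 zinc finger genes of 19q13.31 had at least 2 times as many KO bases, where all peaks gave 3. With one at the pooled median q (1.7e-07), the ratio of covered bases was 2.82 and 2.42 and that of peak number 2.84 and 2.18 in 19p13.2 and 19q13.31, the share of WT peaks that met a KO peak was 95.9% in 19q13.31, that of KO peaks that met a WT peak 27.6% and 36.5%, and the zinc finger genes at 2 times were 25 and 11, where all peaks gave 14 and 3. With the KO list cut to 46898 peaks by fold, the ratio of peak number was 1.23 and 1.04, the shared part of the WT peaks 84.0% and 80.4%, and that of the KO peaks 47.6% in 19p13.2. With peaks within 1 kb merged, 19p13.2 had a ratio of 1.31 in peak number and 54.4% of KO regions met a WT region. With overlap over 50% of both peaks, 32.0% and 33.2% of WT peaks and 19.8% and 24.8% of KO peaks were shared. The cause was not tested. Moving the bounds to the zinc finger genes and using the authors' gene assignment moved no value, nor did counting genes from peaks inside the bounds alone (14 and 3), an alternative chosen after seeing the data. No paired analysis was possible because the lists hold no column per library, and for the same reason no replicate could be left out; a spread between cultures and the read depth remain unknown.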
